A study of Homo sapiens with 9 samples.

Results

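The subject is the change in gene expression that followed induction of the FOSL1 hairpin FOSL1sh10 in EGI-1, a human cell line long established from a bile duct cancer (cholangiocarcinoma). Members were chosen by title: the 3 FOSL1sh10 libraries and the 3 libraries of the control hairpin GFPsh, 6 of the 9 libraries in the series, with every gene counted. The other 3 libraries carry a different FOSL1 hairpin, FOSL1sh3. They show where FOSL1sh10 differs, and in the shared fit they add to the estimate of spread behind the adjusted p-values. All 9 libraries come from cells with a tetracycline-inducible short hairpin RNA (shRNA), and all of them, controls included, received doxycycline at 2 ug per ml for 4 days and were seeded for 24 h before harvest. The GFPsh cells are therefore a control for doxycycline and for hairpin expression, and no library without doxycycline was used. The labels do not say whether a line was 1 clone or a pool, nor whether replicates came from separate cultures. The p-values therefore rest on the spread among these 9 libraries alone, and that spread may be technical.

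Library totals were 6893026, 8060471 and 9139511 counts for FOSL1sh10 and 7259635, 9015680 and 9211445 for GFPsh, so depth overlapped between the groups. The FOSL1sh10 libraries had a lower share of counts on ribosomal protein genes, 24.8%, 21.1% and 21.8% against 25.0% to 26.6% in GFPsh. As a check of the labelled cell type, EPCAM, KRT19, KRT7 and SOX9, genes of bile duct epithelium, were expressed in all 6 libraries, with KRT19 at 3120 to 4316 CPM (counts scaled to a common library total). Of 12 listed genes of bile duct epithelium, these 4 included, 8 had enough counts to be tested. CFTR, a chloride channel of bile duct cells, had a total of 1 count in the 6 libraries. Among 15 genes of fibroblasts and endothelium, 14 of hepatocytes and 18 of leukocytes, 1, 1 and 3 had enough counts to be tested.

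As background, FOSL1 encodes FRA-1, a member of the AP-1 family of transcription factors. AP-1 proteins bind DNA as dimers of a FOS-type and a JUN-type partner, and FRA-1 has no transactivation domain of the kind found in FOS itself. It is raised by RAS and ERK signalling and is abundant in many carcinomas. AP-1 sites lie beside those of NF-kB at many inflammatory genes.

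FOSL1 itself fell. Its level was 303, 257 and 182 CPM in GFPsh replicates 1, 2 and 3, and 70.9, 57.1 and 65.8 CPM in FOSL1sh10, so the groups did not overlap. The log2 fold change was -1.94 with a standard error (SE) of 0.20 (adjusted p = 1e-05), which leaves 0.261 of the control level. All adjusted p-values are from edgeR's quasi-likelihood test with Benjamini-Hochberg adjustment over 12814 genes, and a gene was called when it was under 0.05. An exact two-sided permutation test of FOSL1 over the 6 libraries gave p = 0.1, the smallest value that 3 against 3 allows.

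With FOSL1sh10, 676 genes were called, 5.28% of those tested: 401 were higher (3.13%) and 275 lower (2.15%). The change was at least 2-fold for 188 of the higher and 98 of the lower genes, and at least 4-fold for 37 and 9. The median log2 fold change of all tested genes was 0.0016. Higher calls outnumbered lower ones at every fold size, and the median change was 0.96 among the higher and -0.83 among the lower. The FOSL1sh10 and GFPsh values did not overlap for 3498 genes (27.3% of those tested), 674 of the 676 calls among them. Protein-coding genes made up 361 of the higher and 251 of the lower calls. With library totals alone in place of TMM scaling the split became 650 higher and 189 lower, or 77.5% higher in place of 59.3%, and the median of all genes moved to 0.11. Leaving out 1 library at a time left 347 to 422 calls, fewest without FOSL1sh10 replicate 2, and 244 genes were called in all 6 of those fits (158 higher, 86 lower). Genes described without further comment below are among these 244. Of 15 tested AP-1 family genes, which include the partners that FRA-1 can pair with, FOSL1 alone was called, and their median log2 fold change was 0.17. With library totals alone 3 others were called higher.

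**Figure D1:**
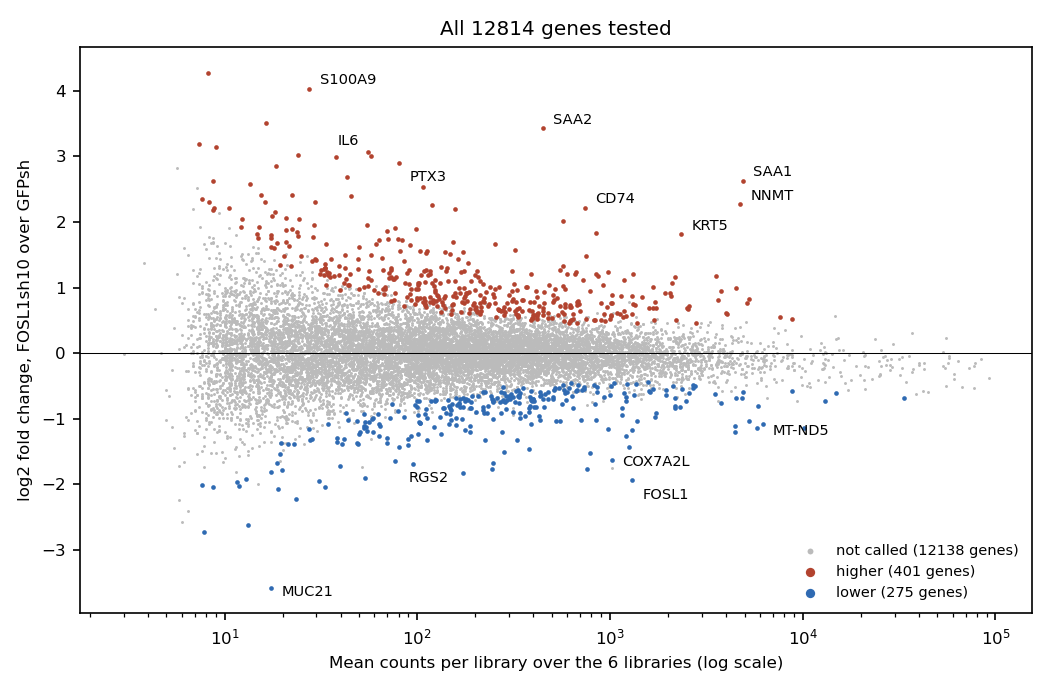
Each point is 1 of the 12814 tested genes, placed by its mean counts over the 6 libraries (log scale) and its log2 fold change in FOSL1sh10 over GFPsh; coloured points are the 401 higher and 275 lower calls. SAA1 and NNMT stand out as well-counted genes with more than 2 log2 units of change, and FOSL1 is among the strongest decreases of well-counted genes.

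SAA1 and SAA2 encode serum amyloid A, an acute-phase protein that is made mostly by liver and also by inflamed epithelia. SAA1 was at 162, 167 and 148 CPM in GFPsh and at 1002, 968 and 989 CPM in FOSL1sh10, a 6.2-fold difference. SAA2 went from 6.9, 9.23 and 10.3 CPM to 93.0, 102 and 93.3 CPM. For both genes the lowest FOSL1sh10 library was far above the highest control library. They are near-identical copies that can share reads, so the division between them is uncertain. NNMT, the cytosolic enzyme that methylates nicotinamide, was at 170, 200 and 203 CPM in GFPsh and at 942, 981 and 841 CPM in FOSL1sh10 (log2 fold change 2.27, SE 0.15, adjusted p = 3e-08). The 12 largest increases were taken among called genes with a mean of at least 30 counts and groups that did not overlap. Besides SAA1, SAA2 and NNMT, they were ATP6V1C2 (a subunit of the vacuolar proton pump), IL6, NEURL3, PTX3, THBS1-IT1, KRT6B, HLA-DRB1, SLC43A3 and CD74. The log2 fold changes of these others ran from 2.22 for CD74 to 3.06 for ATP6V1C2. THBS1-IT1 lies inside THBS1 on the same strand, so its reads cannot be told apart from those of unspliced THBS1.

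**Figure D2:**
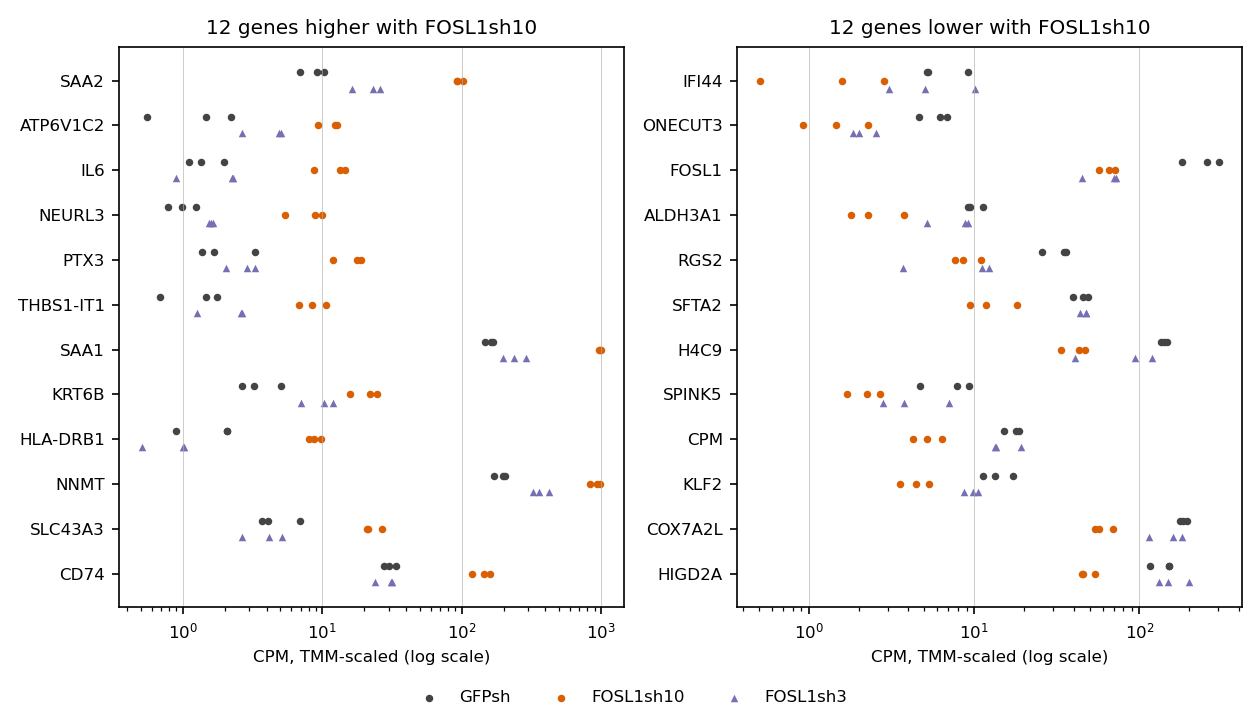
CPM in each library (log scale) of the 12 genes with the largest increase and the 12 with the largest decrease in FOSL1sh10, with GFPsh in black, FOSL1sh10 in orange and FOSL1sh3 as purple triangles. In every row the 3 FOSL1sh10 points lie on one side of the 3 GFPsh points, a condition for choosing these genes. The FOSL1sh3 points lie nearer to GFPsh in most rows and together with FOSL1sh10 for FOSL1, ONECUT3 and RGS2.

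The 12 largest decreases were IFI44, ONECUT3, FOSL1, ALDH3A1, RGS2, SFTA2, H4C9, SPINK5, the gene of carboxypeptidase M, KLF2, COX7A2L and HIGD2A, from -2.05 for IFI44 to -1.53 for HIGD2A. RGS2, which limits signalling by Gq-coupled receptors, was at 35.0, 35.8 and 25.8 CPM in GFPsh and 11, 8.59 and 7.64 CPM in FOSL1sh10. ALDH3A1, an aldehyde dehydrogenase that is abundant in some epithelia, went from 9.38, 9.23 and 11.4 CPM to 2.28, 1.81 and 3.77 CPM. COX7A2L and HIGD2A both encode mitochondrial proteins that act in the assembly of respiratory chain supercomplexes. COX7A2L was at 195, 182 and 176 CPM in GFPsh and at 68.8, 56.5 and 53.6 CPM in FOSL1sh10. HIGD2A was at 151, 151 and 116 CPM in GFPsh and at 45.6, 45.1 and 53.8 CPM in FOSL1sh10. For all 4 genes the highest FOSL1sh10 library was below the lowest control library, a condition for entry among the 12. The call of IFI44 was lost without GFPsh replicate 1, FOSL1sh10 replicate 2 or FOSL1sh10 replicate 3 (adjusted p up to 0.096). That of SPINK5 was lost without GFPsh replicate 3 or FOSL1sh10 replicate 2 (adjusted p up to 0.056). H4C9 is 1 of many near-identical histone H4 genes, and its value is uncertain for that reason.

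Of 8 tested acute-phase proteins, secreted in quantity during inflammation, 5 rose (62.5%, against 3.13% of all genes) and none fell. The median log2 fold change of the list was 1.06. Besides SAA1 and SAA2, those that rose were PTX3, LCN2 and SERPINA1. PTX3, a soluble pattern recognition molecule, was at 1.38, 1.69 and 3.31 CPM in GFPsh and at 12, 17.8 and 19.0 CPM in FOSL1sh10. LCN2, a siderophore-binding protein, rose less, from 126, 126 and 116 CPM to 227, 202 and 236 CPM, and SERPINA1, alpha-1-antitrypsin, went from a mean of 6.24 to 15 CPM. Of 9 tested complement genes only C3, the central component of the cascade, was called, as higher (11.1%, against 3.13% of all genes). It was at 314 ± 10.2 CPM in FOSL1sh10 against 165 ± 4.26 CPM in GFPsh (SD, n = 3 each).

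Of 18 tested secreted cytokines and chemokines 12 rose (66.7%, against 3.13% of all genes), none fell, and the median log2 fold change was 1.26. Of these calls, 8 were kept in every fit without 1 library. IL6, which drives acute-phase synthesis in liver, was at 1.10, 1.35 and 1.98 CPM in GFPsh and at 14.5, 13.5 and 8.76 CPM in FOSL1sh10 (log2 fold change 3.01, SE 0.35, adjusted p = 3.2e-05). CXCL1, a neutrophil chemoattractant, was at 16.1, 20.6 and 20.2 CPM in GFPsh and at 58.1, 66.9 and 45.6 CPM in FOSL1sh10. Its neighbours CXCL2 and CXCL3 rose 3.14-fold and 3.73-fold, and the 3 are close copies of one another. The colony-stimulating factors CSF1 (3.63-fold) and CSF2 (2.17-fold), which act on macrophages and granulocytes, and IL32 (2.40-fold) also rose. CSF2 was already at 49.2 to 60.2 CPM in the control cells and reached 97.9 to 135 CPM. TNF was at 0, 0.225 and 0 CPM in GFPsh and at 1.43, 1.81 and 2.14 CPM in FOSL1sh10. Its call was kept in every fit without 1 library, with adjusted p up to 0.049. CXCL8, the neutrophil chemokine interleukin 8, was not called, at 6.76, 3.15 and 7.27 CPM in GFPsh and 8.56, 9.05 and 13.9 CPM in FOSL1sh10 (adjusted p = 0.17).

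Summed over 18 leukocyte genes, the level was 24.1 to 29.5 CPM in GFPsh and 32.0 to 38.4 CPM in FOSL1sh10. None of the 3 tested was called. CD3E, CD2, MS4A1, CD68, CD163 and FCGR3A were at 0 in all libraries, as was PTPRC in these 6. The sum over 15 genes of fibroblasts and endothelium was 3.38 to 4.74 CPM in GFPsh and 8.13 to 10.1 CPM in FOSL1sh10, with COL3A1, DCN, LUM, PDGFRA, PDGFRB, THY1 and EMCN at 0. That over 14 hepatocyte genes, most of it from SERPINA1, was 6.61 to 8.0 and 14.1 to 17.9 CPM. The part of these differences in the rise of the inflammatory genes was not tested.

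The stretches of promoter below are from genes that rose and were chosen because they hold the kB consensus within 250 bases upstream of the gene start. These are the letters that NF-kB dimers recognise. CSF2 and TNF are among the called cytokine genes without a match in the window searched. Sequences are from RefSeq (GRCh38.p14), written 5′ to 3′ on the strand of the gene, and the capitals mark the letters that match the kB consensus on either strand.
IL6 (chr7:22727115-22727148, plus strand): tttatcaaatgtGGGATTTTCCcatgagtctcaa
CXCL1 (chr4:73869303-73869336, plus strand): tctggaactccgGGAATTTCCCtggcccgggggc
CXCL2 (chr4:74099251-74099284, minus strand): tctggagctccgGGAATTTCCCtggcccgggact
CXCL3 (chr4:74038746-74038779, minus strand): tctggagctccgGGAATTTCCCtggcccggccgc
IL32 (chr16:3065293-3065326, plus strand): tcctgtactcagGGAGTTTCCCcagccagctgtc
PTX3 (chr3:157436742-157436775, plus strand): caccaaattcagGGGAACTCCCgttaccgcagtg
In windows of 300 bases (250 before the gene start and 50 after it), searched on both strands, the kB consensus was found for 7 of the 11 called cytokine genes with a promoter in the table (63.6%) and for no others of the list's 14 tested genes with a promoter. It was found in 1250 of all 9633 tested genes with a promoter, in 20.1% of the higher and in 16.8% of the lower genes. The AP-1 motif TGANTCA was found in 7.44% of the higher and 5.76% of the lower genes, against 4.63% of all tested genes. Among genes called in every fit without 1 library the AP-1 motif was found in 5.83% of the higher and 3.39% of the lower, and the kB consensus in 24 of 120 higher and 12 of 59 lower genes with a promoter. A match describes the letters of a window and says nothing of binding.

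The interleukin 1 system showed opposite changes of agonist and antagonist. IL1A, an alarmin released by epithelial cells, was at 5.38, 3.15 and 5.84 CPM in GFPsh and at 11.3, 14.9 and 15.8 CPM in FOSL1sh10. IL1RN, the receptor antagonist, fell from 69.1, 71.0 and 59.6 CPM to 23.4, 24.9 and 23.7 CPM (log2 fold change -1.47, SE 0.15, adjusted p = 1e-05). IL1B was 2.07-fold higher, a call that was lost without FOSL1sh10 replicate 3 (adjusted p = 0.053). The 11 other tested genes, receptors and signalling adaptors among them, were not called, although 3 of them were called higher with library totals alone.

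Of 24 tested subunits and feedback regulators of NF-kB, 8 were called higher (33.3%, against 3.13% of all genes) and none lower. The median log2 fold change of the 24 was 0.41. RELB, a subunit of the alternative NF-kB dimer, was called in every fit without 1 library: it was at 15.9, 16.1 and 15.7 CPM in GFPsh and at 32.5, 38.7 and 30.4 CPM in FOSL1sh10. The other 7 had smaller or less certain changes and each lost its call in 4 or 5 of the 6 fits without 1 library. They were NFKB2, IKBKE, BCL3, NFKBIA, BIRC3, TNFAIP3 and TRAF1, with log2 fold changes from 0.52 for TNFAIP3 to 2.31 for TRAF1.

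Of 40 tested interferon-stimulated genes, which cells switch on in response to interferons, 17 were higher and 1 lower. The shares were 42.5% and 2.5%, against 3.13% and 2.15% of all genes, and the median was 0.75. In every fit without 1 library 9 were called: IFI35, IFI27, ISG15, UBE2L6, IFIT3, IRF1, IFITM1, MX1 and IFIH1. Of these UBE2L6, IFIT3, IRF1, MX1 and IFIH1 were outside the rule for named genes and were taken after their values were seen. ISG15, a ubiquitin-like modifier, was at 369, 423 and 279 CPM in GFPsh and at 756, 694 and 675 CPM in FOSL1sh10. IFIT3, which binds viral RNA complexes with its relatives, went from 35.6, 35.9 and 33.5 CPM to 67.8, 68.2 and 54.8 CPM. IRF1, a transcription factor of the interferon gamma response, went from 60.8 ± 8.07 to 102 ± 1.87 CPM (SD, n = 3 each). The exception was IFI44, at 9.24, 5.18 and 5.29 CPM in GFPsh and 2.85, 1.58 and 0.509 CPM in FOSL1sh10.
The sequences below carry the interferon-stimulated response element, searched on both strands as 2 copies of GAAA with 2 bases of any kind between them and marked in capitals, in 4 of the genes that rose.
ISG15 (chr1:1013378-1013411, plus strand): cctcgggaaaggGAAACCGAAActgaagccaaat
IFIT3 (chr10:89327863-89327896, plus strand): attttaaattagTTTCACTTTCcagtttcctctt
IFI27 (chr14:94110629-94110662, plus strand): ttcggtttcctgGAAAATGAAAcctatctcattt
IFIH1 (chr2:162318685-162318717, minus strand): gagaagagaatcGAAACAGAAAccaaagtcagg
The element was present in 12 of the 16 called genes of the list with a promoter in the table (75.0%) and in 63.6% of its tested genes, against 2.67% of all tested genes, 6.80% of the higher and 3.14% of the lower genes.

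On the class I side of antigen presentation, which shows peptides from the cell's own proteins, 6 of 22 tested genes were higher and none lower. The share higher was 27.3%, against 3.13% of all genes, and the median was 0.48. With library totals alone 10 were called higher. PSMB9, a subunit of the immunoproteasome, was at 48, 47.9 and 44.1 CPM in GFPsh and at 116, 104 and 110 CPM in FOSL1sh10. HLA-B (1.92-fold), HLA-C (1.61-fold) and HLA-F (1.65-fold) rose as well, and as related genes they can share reads. B2M, the invariant light chain, had 596 to 942 CPM in GFPsh and 438 to 1127 CPM in FOSL1sh10, so the groups overlapped.

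On the class II side, normally restricted to specialised antigen-presenting cells and inducible elsewhere, 6 of 11 tested genes were higher and none lower. The share higher was 54.5%, against 3.13% of all genes, and the median was 1.17. CD74, the invariant chain, was at 29.9, 27.6 and 33.7 CPM in GFPsh and at 119, 161 and 145 CPM in FOSL1sh10 (log2 fold change 2.22, SE 0.16, adjusted p = 1.2e-07). HLA-DRB1 was at 2.07, 0.900 and 2.09 CPM in GFPsh and 8.70, 8.03 and 9.88 CPM in FOSL1sh10. HLA-DPA1 rose 4.94-fold from a mean of 1.15 CPM. These 3 calls were kept in every fit without 1 library, while HLA-DMA was lost without GFPsh replicate 1 or FOSL1sh10 replicate 3, CTSS in 4 and HLA-DRA in all 6 of those fits (adjusted p up to 0.064, 0.085 and 0.26). CIITA, the class II transactivator, was at 1.10, 1.46 and 0.772 CPM and at 3.28, 3.28 and 1.12 CPM, overlapped between the groups and was not called.

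Of 17 tested keratins, the filament proteins of epithelia, 8 were higher (47.1%, against 3.13% of all genes) and none lower. The median was 0.69. KRT5, the type II keratin of basal cells, was at 131, 115 and 116 CPM in GFPsh and at 387, 430 and 453 CPM in FOSL1sh10 (log2 fold change 1.81, SE 0.13, adjusted p = 1.3e-07). KRT6A and KRT6B, keratins of wounded and hyperproliferative epithelium and near-identical in sequence, rose 1.77-fold and 5.78-fold, and KRT17 rose 1.72-fold. The hair-type keratin KRT86 (3.19-fold) and the simple-epithelial keratin KRT7 (1.64-fold) rose too. KRT8, KRT18 and KRT19, the most abundant keratins here, were not called, with log2 fold changes of 0.24, 0.30 and -0.22. Among 13 other genes of squamous differentiation only CALML5, a calcium sensor of the upper epidermis, was called (7.69%, against 3.13% of all genes called higher). With library totals alone 3 of the 13 were called. CALML5 was at 5.66, 7.31 and 6.83 CPM in GFPsh and at 18.1, 14.6 and 24.4 CPM in FOSL1sh10.

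Of 13 tested S100 calcium-binding proteins, 4 were higher (30.8%, against 3.13% of all genes) and none lower. The median was 0.05. S100A2 rose 2.17-fold and its neighbour S100A3 2.37-fold. S100A9, a subunit of calprotectin, was near the detection limit in GFPsh (0.690, 0.000 and 0.441 CPM) and was at 6.85, 6.22 and 5.40 CPM in FOSL1sh10. None of 23 epithelial junction genes was called by edgeR, and their median was 0.13, while 1 was called higher with library totals alone.

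The plasminogen system activates plasmin at the cell surface to degrade matrix. Of 12 tested genes 4 rose, 1 fell and 7 were not called (33.3% higher and 8.33% lower, against 3.13% and 2.15% of all genes). PLAU, urokinase, was at 155, 135 and 181 CPM in GFPsh and at 335, 375 and 348 CPM in FOSL1sh10. Its receptor PLAUR rose 1.66-fold, and PLAT, the tissue-type activator, rose 2.30-fold. All FOSL1sh10 libraries were above all control libraries for these 3 genes. The groups did not overlap for 674 of the 676 calls and for 27.3% of all tested genes. SERPINB2, an inhibitor of urokinase (1.61-fold higher), and the plasminogen receptor gene PLGRKT (log2 fold change -0.55) lost their calls in 4 and 5 of the 6 fits without 1 library (adjusted p up to 0.13 and 0.17). Integrins, laminins and their ligands had 1 higher and 1 lower gene of 27, near the shares over all genes (3.13% and 2.15%): THBS1, thrombospondin 1, rose 1.70-fold, and COL17A1, a hemidesmosome collagen, fell from 53.7 ± 3.95 to 27.1 ± 1.83 CPM (SD, n = 3 each). Of 13 mesenchymal genes, 1 was called higher and 1 lower (7.69% each, against 3.13% and 2.15% of all genes). L1CAM, a neural adhesion molecule, was 2.95-fold higher. COL6A1, a collagen VI chain, was lower at -0.58, a call lost in 3 of the 6 fits without 1 library (adjusted p up to 0.095).

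**Figure D3:**
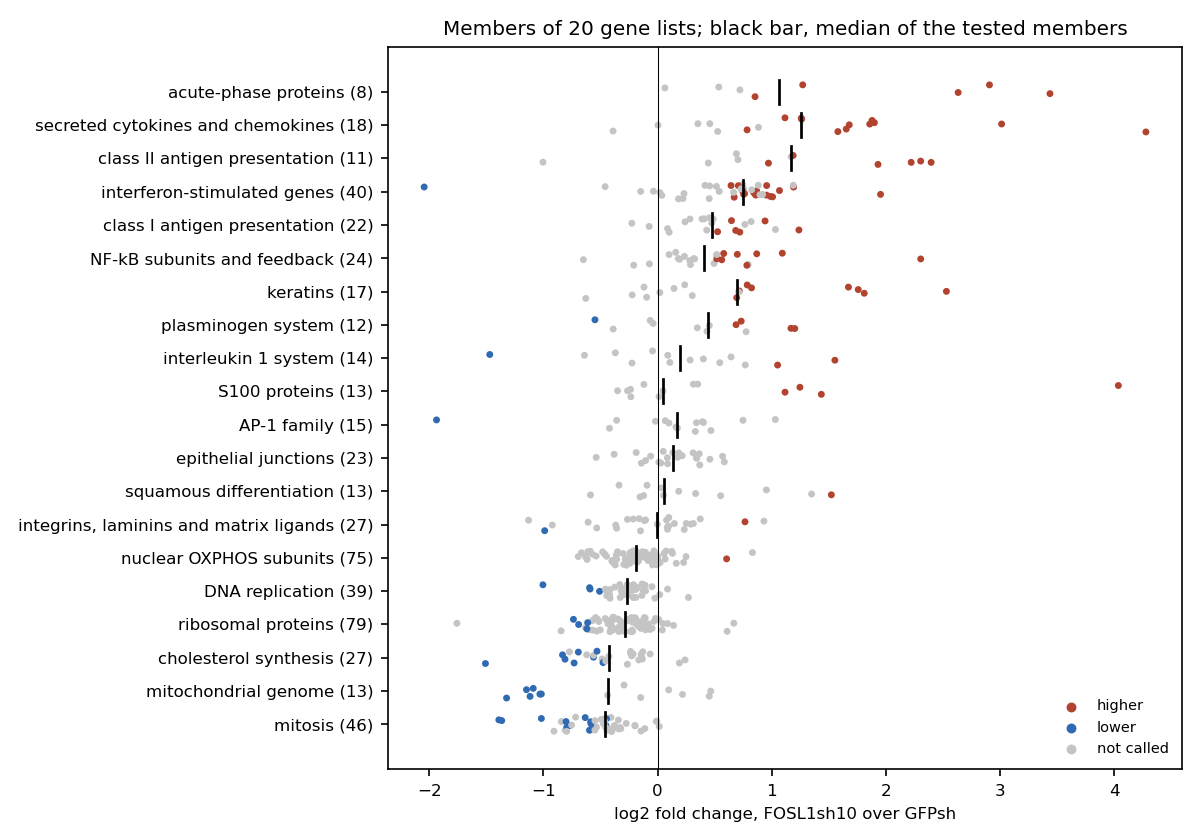
Log2 fold change in FOSL1sh10 over GFPsh of each tested member of 20 gene lists (number tested in brackets), coloured where called, with the list median as a black bar. The medians run from 1.26 for cytokines and chemokines to -0.46 for mitosis genes. The rightmost cytokine point is TNF, at 0, 0.225 and 0 CPM in GFPsh.

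Of 46 tested mitosis genes, 13 were lower (28.3%, against 2.15% of all genes), none was higher, all but 1 had a negative log2 fold change, and the median was -0.46. With library totals alone 7 were called lower and the median was -0.35. TOP2A, which disentangles sister chromatids, was called in every fit without 1 library, at 74.3, 70.1 and 62.5 CPM in GFPsh and 34.8, 32.3 and 34.9 CPM in FOSL1sh10. The other 12 were lost in at least 1 of those fits. NCAPD2, a condensin subunit, was lost without FOSL1sh10 replicate 3 alone (adjusted p = 0.066). DNA replication genes had 4 lower calls of 39 (10.3%, against 2.15% of all genes) and none higher. The median was -0.27, and library totals alone gave 1 call. None of the 4 was called in every fit without 1 library.
The sequences below show the cell cycle genes homology region, searched as TTTGAA on both strands and marked in capitals, upstream of 4 mitosis genes that were called lower. As background, it is an element through which the DREAM complex represses such genes in quiescent cells.
TOP2A (chr17:40418030-40418059, minus strand): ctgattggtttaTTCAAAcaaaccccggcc
CENPA (chr2:26786026-26786055, plus strand): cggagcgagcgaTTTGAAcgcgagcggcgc
CDK1 (chr10:60778158-60778187, plus strand): gagtataataaaTTTGAActgtgccaatgc
PLK1 (chr16:23678848-23678877, plus strand): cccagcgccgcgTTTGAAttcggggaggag
It was present in 9 of the 11 called mitosis genes with a promoter in the table (81.8%) and in 69.2% of the list, against 9.42% of all tested genes, 17.3% of the lower and 10.0% of the higher genes. CENPA, the centromeric histone, and the mitotic kinases CDK1 and PLK1, chosen for their promoters after their values were seen, had log2 fold changes of -0.59, -0.60 and -0.58, and lost their calls in 4, 5 and 5 of the 6 fits without 1 library (adjusted p up to 0.11, 0.19 and 0.18).

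Of 27 tested cholesterol synthesis genes, 8 fell (29.6%, against 2.15% of all genes), none rose and 19 were not called. The median was -0.43. With library totals alone 4 were called and the median was -0.32. HMGCS1, which makes the HMG-CoA that enters the mevalonate pathway, was at 47.3, 63.0 and 38.7 CPM in GFPsh and at 23.1, 17.6 and 12 CPM in FOSL1sh10 (log2 fold change -1.51, SE 0.25, adjusted p = 0.001). MSMO1, a sterol demethylase, fell from 162, 162 and 209 CPM to 114, 102 and 104 CPM. The other 6 were lost in 3 to 6 of the fits without 1 library. Fatty acid synthesis genes were mixed, with 2 higher and 3 lower of 19 (2 and 1 with library totals alone). In the main fit 10.5% of this list were higher and 15.8% lower, against 3.13% and 2.15% of all genes. FADS1, a desaturase, fell from 16.7 ± 1.70 to 7.98 ± 1.56 CPM (SD, n = 3 each).

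Transcripts of the mitochondrial genome split by gene. Of the 13 protein-coding genes, 6 were lower (46.2%, against 2.15% of all genes) and none higher. The median was -0.44. The 4 that were called in every fit without 1 library encode subunits of complex I. So do MT-ND1 and MT-ND6 (log2 fold change -0.44 for MT-ND6), which were not called. MT-ND5 was at 877, 1035 and 1058 CPM in GFPsh and at 427, 494 and 475 CPM in FOSL1sh10. MT-ND2 fell from 129, 145 and 127 CPM to 77.6, 61.3 and 59.4 CPM. MT-ND3 fell by 1.03 on the log2 scale. MT-ND4L, which overlaps MT-ND4, fell by 1.32. MT-ND4 and MT-CYB were also lower, at -1.12 and -1.15. MT-CYB was lost without GFPsh replicate 2, FOSL1sh10 replicate 2 or FOSL1sh10 replicate 3, and MT-ND4 in 5 of the 6 fits without 1 library (adjusted p up to 0.083 and 0.12). The most abundant transcripts were not called: MT-CO3 had 8305 to 10521 CPM in GFPsh and 7948 to 9316 CPM in FOSL1sh10, and MT-CO1 had a log2 fold change of 0.22. The summed level of the 13 genes was 16844 to 19246 CPM in GFPsh and 14984 to 15974 CPM in FOSL1sh10. Among 75 nuclear genes of oxidative phosphorylation 1 was higher (1.33%, against 3.13% of all genes) and none was lower. The median was -0.19.

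**Figure D4:**
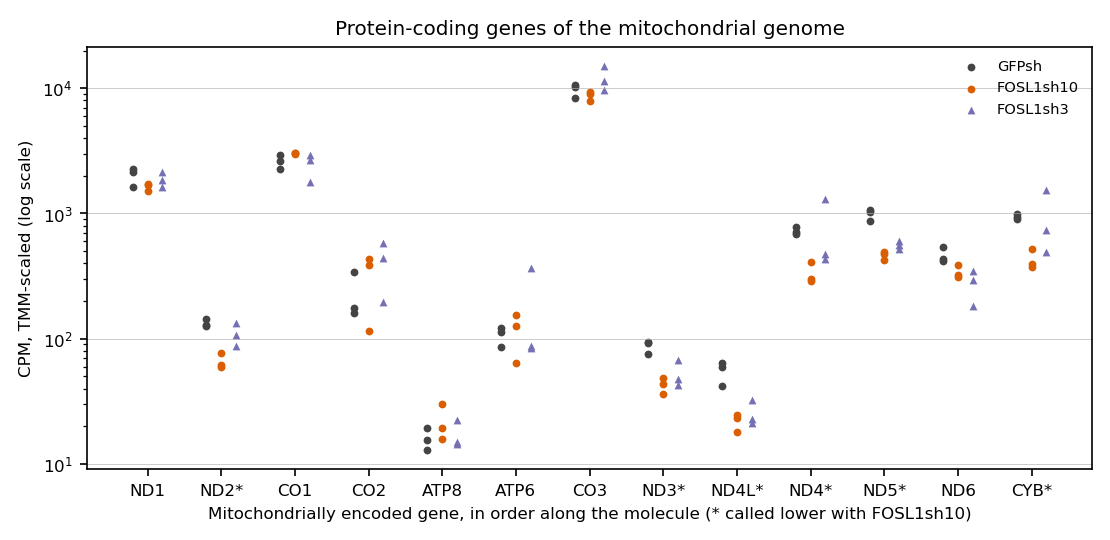
CPM in each library (log scale) of the 13 protein-coding genes of the mitochondrial genome, in their order along the molecule; stars mark the 6 genes called lower in FOSL1sh10. FOSL1sh10 points (orange) lie below all GFPsh points (black) for ND2, ND3, ND4L, ND4, ND5 and CYB, and overlap them for CO2, ATP8, ATP6 and CO3.

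Ribosomal protein genes had 4 lower calls of 79 (5.06%, against 2.15% of all genes) and none higher, with a median of -0.29. The calls were RPS27, RPS28, RPS29 and, outside the rule for named genes, RPS24, and none of them was kept in every fit without 1 library. RPS28 was at 4269, 5556 and 4812 CPM in GFPsh and at 3427, 2420 and 3213 CPM in FOSL1sh10, lowest in replicate 2. Its call was lost without GFPsh replicate 2 or FOSL1sh10 replicate 2 (adjusted p up to 0.10).

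Lists of ATF4 and unfolded protein response, hypoxia and glycolysis, NRF2 target and p53 target genes held 1 to 3 higher calls each. None of them held a lower call, and 3.13% of all genes were called higher. Of 14 tested aldehyde dehydrogenases none was higher and 2 were lower (14.3%, against 2.15% of all genes). PHGDH, the first enzyme of serine synthesis, rose 2.39-fold and CEBPB, a transcription factor of inflammation and amino acid stress, rose from the ATF4 and unfolded protein response list (3 higher of 25, and 6 with library totals alone). VEGFA, an angiogenic factor, was the only call of 25 hypoxia and glycolysis genes (2 were called with library totals alone), at 121 ± 23.2 against 62.8 ± 1.72 CPM (SD, n = 3 each). Of 23 NRF2 targets 1 was higher, HMOX1, heme oxygenase 1, and of 20 p53 targets 1, BBC3, a promoter of cell death. They lost their calls in 4 and 6 of the 6 fits without 1 library (adjusted p up to 0.15 and 0.13).

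Some called genes had a called neighbour in the same direction. Runs of at least 2 called genes with gaps of up to 100 kb held 74 of the 401 higher genes (18.5%, in 34 runs) and 26 of the 275 lower genes (9.45%, in 10 runs). No share for genes taken regardless of position was computed, so whether called genes cluster was not tested. The 2 shares come from unlike numbers of calls and cannot be set against each other. Some runs hold overlapping genes, such as THBS1 with THBS1-IT1. The higher runs included the pairs SAA2 and SAA1 on chromosome 11, CXCL3 and CXCL2 on chromosome 4, IL1A and IL1B on chromosome 2, and the keratins KRT6B, KRT6A and KRT5 on chromosome 12. Among the lower runs, VARS2, SFTA2 and MUC21 lie close together on chromosome 6, with MUCL3, which was not called (-0.66), between SFTA2 and MUC21. VARS2, mitochondrial valyl-tRNA synthetase, was at 837, 795 and 882 CPM in GFPsh and at 402, 383 and 434 CPM in FOSL1sh10. SFTA2, a secreted surfactant-associated protein, fell from 39.6, 49.2 and 45.4 CPM to 18.3, 9.50 and 11.8 CPM. MUC21, a cell-surface mucin, fell from 4.14, 2.70 and 4.74 CPM to 0.143, 0.226 and 0.509 CPM. VARS2, MUCL3 and MUC21 were outside the rule for named genes and were taken after their values were seen. ALDH3A2 and ALDH3A1 on chromosome 17 formed another lower pair, and the call of ALDH3A2 was lost without GFPsh replicate 3 (adjusted p = 0.051). Counting ignored strand, so reads of overlapping neighbours could not be told apart, and duplicated genes in a run can share reads.

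Set against FOSL1sh3, FOSL1sh10 differed in 1633 genes (12.7% of those tested), 897 higher (7.00%) and 736 lower (5.74%). With library totals alone the split was 1807 higher and 385 lower. Without FOSL1sh10 replicate 2 the count was 712, without FOSL1sh10 replicate 3 it was 907, and without FOSL1sh3 replicate 3 it was 1051. No difference was detected in FOSL1 itself, at 72.3, 70.3 and 44.9 CPM in FOSL1sh3 (difference 0.05 on the log2 scale, SE 0.19, adjusted p = 0.90). Of 18 cytokines and chemokines 14 were higher with FOSL1sh10 than with FOSL1sh3 and none lower, and of the 11 class II genes 6 were higher and none lower. SAA1 was at 237, 199 and 288 CPM in FOSL1sh3, above the controls and below FOSL1sh10 in every library (difference 2.03, SE 0.15, adjusted p = 3.3e-07). CD74 was at 31.0, 31.7 and 23.9 CPM in FOSL1sh3 (difference 2.30, adjusted p = 3e-07) and CXCL1 at 11.1, 17.5 and 8.91 CPM (difference 2.20, adjusted p = 5.9e-06). LCN2 went the other way, lower with FOSL1sh10 than with FOSL1sh3 (difference -0.53, adjusted p = 0.016), a call lost with library totals alone (adjusted p = 0.078) and without FOSL1sh3 replicate 3 or FOSL1sh10 replicate 2 (adjusted p up to 0.089). C3 had a difference of -0.37 (adjusted p = 0.11). Of 79 ribosomal protein genes, 23 were lower with FOSL1sh10 and none higher, and 11 were lower with library totals alone.

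Both hairpins were compared with the same GFPsh libraries, so the following values are given side by side. IL1RN changed by -1.47 with FOSL1sh10 and -1.72 with FOSL1sh3, RGS2 by -1.83 and -1.82, L1CAM by 1.56 and 1.71, CALML5 by 1.52 and 1.66, and KRT17 by 0.79 and 0.84. COX7A2L changed by -1.63 and -0.28, with a difference between the hairpins of -1.35 (SE 0.17, adjusted p = 4.8e-05). HIGD2A changed by -1.53 and 0.20, with a difference of -1.73 (SE 0.17, adjusted p = 5e-06). FOSL1sh10 was also higher than FOSL1sh3 for 173 of the 401 higher genes, where 7.00% of all genes were. It was also lower for 134 of the 275 lower genes, where 5.74% of all genes were. Both comparisons use the same FOSL1sh10 libraries, so this overlap is not independent of the calls.

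Among genes called in both comparisons, the largest positive differences from FOSL1sh3 were in HLA-DRB1 (3.41), CREB5 (3.34), GFPT2 (2.75), IL6 (2.73), CALB2 (2.60) and PTX3 (2.57). GFPT2, which feeds glucose carbon into hexosamines, was at 4.97, 5.40 and 3.31 CPM in GFPsh, at 12.3, 18.3 and 14.3 CPM in FOSL1sh10 and at 2.98, 1.88 and 1.65 CPM in FOSL1sh3, so the hairpins lay on opposite sides of the control. The largest negative differences were in ALPG (-2.37), IFI44 (-1.97), PDE9A (-1.92), ANXA11 (-1.88), PSCA (-1.88) and SFTA2 (-1.83). PDE9A, a cyclic GMP phosphodiesterase, was at 27.0, 26.9 and 22.8 CPM in GFPsh, at 10.7, 12.6 and 12.3 CPM in FOSL1sh10 and at 41.5, 41.0 and 52.4 CPM in FOSL1sh3. ANXA11, a calcium-dependent membrane-binding protein, was at 237, 175 and 240 CPM in GFPsh, at 78.7, 77.6 and 84.2 CPM in FOSL1sh10 and at 313, 280 and 292 CPM in FOSL1sh3. Of these 12 genes, the calls of CREB5, CALB2, ALPG, PSCA and IFI44 against GFPsh were lost in 3 to 6 of the fits without 1 library.

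**Figure D5:**
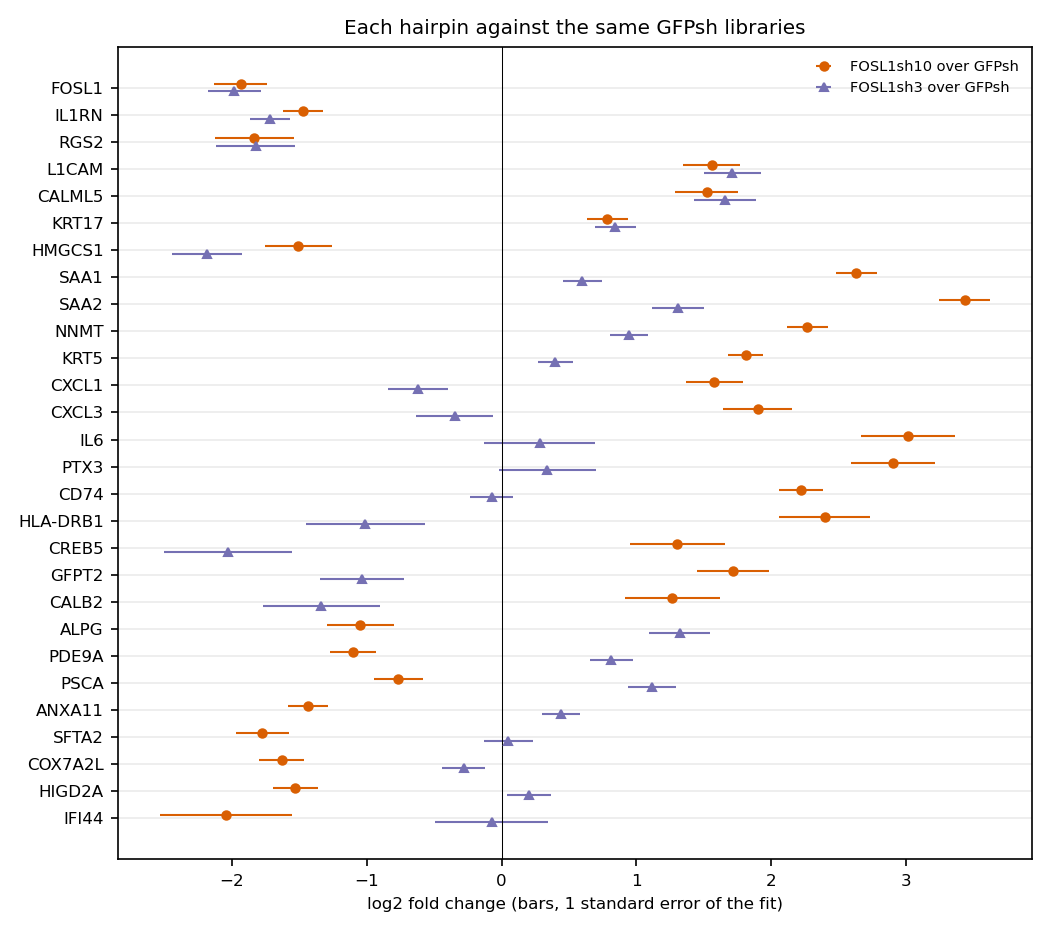
Log2 fold change against the same GFPsh libraries with FOSL1sh10 (orange circles) and FOSL1sh3 (purple triangles), with bars of 1 SE, for genes described in the text. The bars overlap for FOSL1, IL1RN, RGS2, L1CAM, CALML5 and KRT17, and the points lie on opposite sides of 0 for GFPT2, CREB5, ALPG, PDE9A and ANXA11, among others.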

How the data were processed

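RNA from 9 EGI-1 libraries, made with the low-input MARS-seq method per the labels' protocols, was sequenced. Each deposited file holds raw read counts for 58381 genes. Per the file headers, the authors made these counts with featureCounts 1.6.0 over exons of GENCODE 28, with no option set for strand, multimapping reads or duplicates. The submitters' processing notes name STAR 2.5.3a, FastQC 0.11.5, edgeR, limma and the hg38 build. No source used here says whether molecular identifiers were collapsed, so counting limits cover counting error only. Symbols for 58261 genes came from GENCODE 29.

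Genes were kept with edgeR 4.0.16 (R 4.3.3) when they passed its filter (count minimum 10, total 15), leaving 12814. TMM scaling and 1 quasi-likelihood fit of group over all 9 libraries followed, with Benjamini-Hochberg adjustment and a threshold of 0.05. SE is the absolute log2 fold change over the root of F. CPM values are TMM-scaled. The common biological coefficient of variation was 16.4%, and 3 counts, the limit that a count of 0 allows, equal 0.326 to 0.435 CPM in the 6 libraries. Alternatives were library totals, DESeq2 1.42.0 size factors and Wald test, no filter, a mean of at least 30 counts, a fit of only the groups compared, a replicate block and leaving out each library.

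Genes named are FOSL1, the 12 largest increases and 12 largest decreases (mean of at least 30 counts, groups apart), leading called members and extremes of 35 gene lists, members of lists described gene by gene, and the 6 largest differences each way from FOSL1sh3. Members and lists were chosen with earlier results of these data known. Promoters are from a RefSeq table (GRCh38.p14) that matched 9633 of the 12814 genes.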

Additional observations from a re-analysis of the deposited data

Results flagged for a closer look

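For 12 genes named in the report, the difference between the effects of the 2 FOSL1 hairpins passed its own test (FOSL1sh10 against FOSL1sh3, edgeR's quasi-likelihood test, adjusted over all genes tested). The log2 difference, FOSL1sh10 minus FOSL1sh3, was positive for HLA-DRB1 (3.41, adjusted p = 1.6e-05), CREB5 (3.34, adjusted p = 0.00011), GFPT2 (2.75, adjusted p = 1e-05), IL6 (2.73, adjusted p = 5.8e-05), CALB2 (2.60, adjusted p = 0.00046) and PTX3 (2.57, adjusted p = 3.1e-05). It was negative for ALPG (-2.37, adjusted p = 7.7e-06), IFI44 (-1.97, adjusted p = 0.014), PDE9A (-1.92, adjusted p = 2e-06), ANXA11 (-1.88, adjusted p = 6.3e-07), PSCA (-1.88, adjusted p = 5e-06) and SFTA2 (-1.83, adjusted p = 1.2e-05). These genes were selected for the size of this difference, so the values describe them.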

How the results depend on the processing

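FOSL1 kept its direction and its call against GFPsh under every alternative tried, with log2 fold changes from -2.12 to -1.77. Its difference from FOSL1sh3, 0.05, changed sign without FOSL1sh3 replicate 3 (-0.14, adjusted p = 0.68, edgeR) and without FOSL1sh10 replicate 1 (-0.02, adjusted p = 0.97), ranged from -0.14 to 0.17 without 1 library, and passed the threshold in no setting. The 676 calls against GFPsh became 1124 (614 higher, 510 lower) when only the 2 groups were fitted, and 673 of the 676 were among them. Library totals alone gave 650 higher calls, and no filter on low counts gave 438 lower calls. The DESeq2 Wald test called 821 genes, 669 of the 676 among them. Leaving out 1 library gave 347 to 422 calls, 220 to 258 higher and 127 to 171 lower. The 1633 differences from FOSL1sh3 became 1807 higher and 385 lower with library totals alone, and 712 to 1920 when 1 library was left out (378 to 1105 higher, 334 to 815 lower). Of 126 called genes given in the text, all kept their direction in every setting, 86 also kept their call, and the others each lost it in at least 1 fit without 1 library (20 to 29 genes per library left out). The replicate block gave 695 calls against GFPsh (401 higher, 294 lower), 635 of the 676 among them, and 1673 against FOSL1sh3. Libraries with the same replicate number did not deviate together (correlations of -0.116, -0.0953 and 0.0379 between FOSL1sh10 and GFPsh), and not every library correlated best with its own number, so the numbers were not used as pairs. Calls were fewer among genes with few counts: of the 3208 genes with the lowest mean counts 2.62% were called, against 6.87% of the 3204 with the highest.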

Other observations

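Several genes of secreted signals and their processing were not described above. Of 20 tested metalloproteinases and their inhibitors, 3 were higher (15%, against 3.13% of all genes) and none lower. ADAMTS6, a secreted protease of the ADAMTS family, was at 0.414, 1.24 and 0.772 CPM in GFPsh and at 4.42, 4.86 and 4.08 CPM in FOSL1sh10, a call kept in every fit without 1 library. ADAM19, a membrane-bound metalloproteinase, went from 2.07, 2.59 and 2.09 CPM to 5.71, 5.43 and 7.13 CPM, and lost its call in 3 of the 6 fits without 1 library (adjusted p up to 0.076, edgeR). MMP9, gelatinase B, was at 1.32 to 1.81 CPM in FOSL1sh10, and its call was lost in all 6 of those fits (adjusted p up to 0.11). Of 13 EGF ligands and their receptors, 2 were higher (15.4%, against 3.13% of all genes), both ligands. EREG (1.71-fold) and BTC (2.78-fold) lost their calls in 3 and 5 of those fits (adjusted p up to 0.10 and 0.20).

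The following genes lie outside the rule for named genes and were chosen after their values were seen. All of them were called in every fit without 1 library. APOBEC3G, a cytidine deaminase that restricts retroviruses, was at 24.0, 24.1 and 30.2 CPM in GFPsh and at 89.7, 93.2 and 132 CPM in FOSL1sh10. INHBA, the activin A subunit, was at 44.1, 49.2 and 38.2 CPM in GFPsh and at 155, 185 and 128 CPM in FOSL1sh10. GDF15, a stress-induced cytokine of the TGF-beta family, went from a mean of 46.6 to 108 CPM. TXNIP, an inhibitor of thioredoxin, was at 105, 101 and 89.7 CPM in FOSL1sh10 against 40.4 to 44.7 CPM in GFPsh, and at 85.5 to 94.8 CPM in FOSL1sh3. CAV1, the main structural protein of caveolae, fell from 782, 695 and 745 CPM to 330, 339 and 295 CPM.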
